A study of Mus musculus with 4 samples.

Results

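Lymphatic endothelial cells of the mouse common bile duct are described here from single-cell RNA libraries of whole dissected ducts. The set was defined by a gate on transcript counts. A cell belonged to it if it had at least 500 detected genes, at most 25% mitochondrial UMIs (unique molecular identifiers, 1 per captured transcript molecule), at most 3 UMIs of the epithelial gene Epcam and 0 UMIs of the leukocyte gene Ptprc. It also needed at least 2 of the 5 lymphatic markers Prox1, Ccl21a, Mmrn1, Lyve1 and Flt4, and at least 1 of the 3 endothelial markers Pecam1, Cdh5 and Egfl7. Of 19246 cells that passed the gene and mitochondrial filters, 277 were members. There were 145 in the gain-of-function (GOF) library, and 39, 44 and 49 in wild-type libraries 1, 2 and 3. Blood endothelium of the same libraries served for comparison: cells under the same filters with at least 2 of the 3 endothelial markers and none of Prox1, Ccl21a, Mmrn1 and Lyve1. It held 59 GOF cells and 29, 21 and 40 wild-type cells.

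The GOF library carries the genotype Prom1_BcatGOF, and the series describes its Ctnnb1 (beta-catenin) gain of function as mosaic. The 3 reference libraries are labelled wild type. All 4 came from untreated common bile duct that was minced, digested with dispase and a bacterial protease, and captured with 10x Chromium 3′ chemistry. The labels give no age, strain, sex or construct, and 1 GOF library was analysed here, so the GOF values have no replicate. Separate animals are not stated for the wild-type libraries, so a p-value covers the spread between samples alone, and that spread may be technical. Per the file headers, Cell Ranger 7.0.0 produced the GOF counts and version 3.0.2 the wild-type counts, so genotype and processing cannot be told apart.

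Lymphatic endothelium lines the vessels that drain fluid, lipid and immune cells from a tissue. Its identity is set and kept by the homeobox factor Prox1, and its growth depends on VEGF-C acting through VEGFR3, the product of Flt4. Lymphatic capillary cells carry the hyaluronan receptor Lyve1 and secrete CCL21, the chemokine that draws dendritic cells and T cells bearing its receptor Ccr7. Mmrn1 encodes multimerin, a secreted glycoprotein of these cells.

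Ccl21a, the chemokine gene among the markers, has near-identical copies on mouse chromosome 4. A coding stretch is shown beside that of the copy with the most UMIs in these cells, to show how little separates their transcripts. Ccl21a lies at chr4:42772860-42773993 on the minus strand and the predicted gene Gm21541 at chr4:41903610-41904743 on the plus strand (GRCm38, GENCODE annotation). Their 870-base transcripts differ at 6 bases and are 99.3% identical. Coding bases 54 to 203 are printed 5′ to 3′, taken from chr4:42773534-42773865 and chr4:41903738-41904069 with the intron removed. Capitals mark the 2 bases that differ, which are also the only 2 differences in the coding sequence. Another 3 differences lie after the stop codon and are not printed. The chemistry captures the 3′ end of transcripts, so the printed stretch need not be the part that the reads cover.
Ccl21a: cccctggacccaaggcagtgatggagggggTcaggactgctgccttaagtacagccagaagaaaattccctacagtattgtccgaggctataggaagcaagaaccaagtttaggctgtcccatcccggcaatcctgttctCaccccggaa
Gm21541: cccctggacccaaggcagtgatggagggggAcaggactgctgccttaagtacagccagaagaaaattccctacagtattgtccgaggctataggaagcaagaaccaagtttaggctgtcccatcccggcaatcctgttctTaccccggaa
In lymphatic cells Gm21541 was listed at 14.8 CPM (counts per 1000000 UMIs of the summed cells) in the GOF library, against 230, 456 and 371 CPM in wild-type libraries 1, 2 and 3. Reads of the copies can be split or dropped by the counting, so Ccl21a levels are uncertain to that extent.

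The 8 genes used by the gate are given as a description, with no test. Ccl21a had 6479 CPM in GOF lymphatic cells, against 52151, 45760 and 29798 CPM in the wild-type libraries. It was detected in 66.9% of GOF members, against 89.7%, 90.9% and 93.9% of wild-type members, with a median of 17 UMIs per cell against 135, 125.5 and 58. The GOF library thus sat below every wild-type library in level, in share of cells and in UMIs per cell, although its cells were deeper. In cells with at least 1 Lyve1 UMI the order was the same, with 8987 CPM in the GOF library against 61931, 55933 and 40889 CPM. In the remaining filtered cells of each library, most of which should lack the gene, Ccl21a was at 10.2 CPM in the GOF library and 42.7, 87.2 and 82.0 CPM in the wild-type libraries.

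Mmrn1 was listed at 2110 CPM in GOF members and at 4921, 3523 and 3334 CPM in wild-type members, and was seen in 97.2% of GOF members and 100% of the members of each wild-type library. Lyve1 was at 1194 CPM in the GOF library, against 1732, 1800 and 1658 CPM. Flt4 was at 576 CPM against 830, 760 and 563 CPM, which overlap. Prox1 ran the other way, with 812 CPM in the GOF library against 433, 488 and 611 CPM, and was detected in 86.9% of GOF members against 51.3%, 56.8% and 59.2% of wild-type members. These shares depend on depth: a GOF member had a median of 3760 UMIs, against 1976, 1432 and 1379 UMIs in wild-type members. In epithelial cells above the Epcam limit, with a median depth of 9327 UMIs in the GOF library and 7942, 4322 and 3709 UMIs in the wild-type libraries, Prox1 was detected in 17.8% of GOF cells and in 6.58%, 8.16% and 6.77% of wild-type cells. Its level there was 19.5 CPM in the GOF library, against 7.18, 12.2 and 13.0 CPM. In members with at least 1 Lyve1 UMI, Prox1 was at 768 CPM in the GOF library, against 433, 501 and 760 CPM.

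Of the endothelial genes of the gate, Pecam1 lay above and Cdh5 below the wild-type range, and Egfl7 lay within it. The adhesion molecule Pecam1 was at 548 CPM in GOF members, against 415, 475 and 383 CPM. VE-cadherin, Cdh5, was at 289 CPM in GOF members, against 415, 412 and 473 CPM. The secreted factor Egfl7 was at 686 CPM in GOF members, against 883, 741 and 473 CPM.

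**Figure D1:**
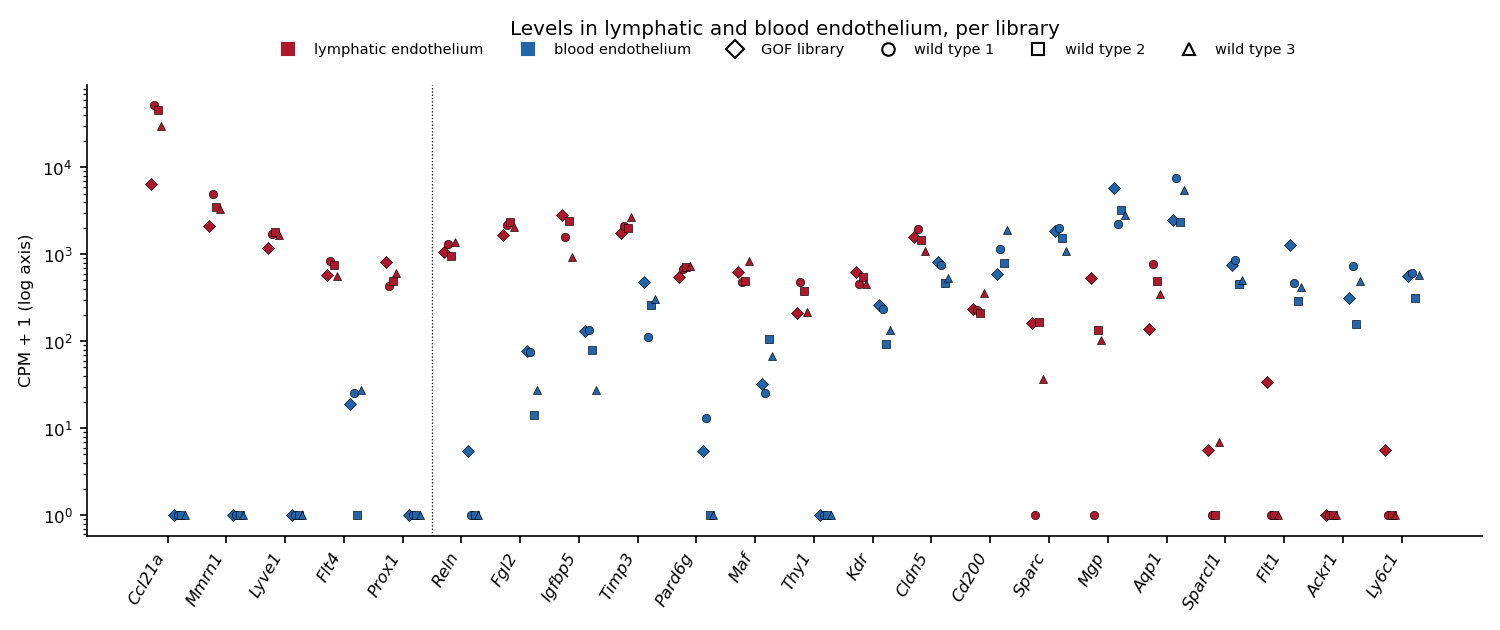
Levels of the 5 lymphatic gate genes (left of the dotted line) and 17 other genes in lymphatic (red) and blood (blue) endothelium, as CPM + 1 on a log axis, 1 symbol per library. Reln, Fgl2 and Pard6g lie above blood endothelium in every library, and Ackr1 is at 0 in the lymphatic cells of all 4.

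Members varied in how many markers they showed. All 5 lymphatic markers were present in 121 members, 73 in the GOF library and 48 in the wild-type libraries. The combination of Prox1, Mmrn1 and Flt4 without Ccl21a or Lyve1 was found in 20 GOF members and in 2 wild-type members. Prox1 and Mmrn1 alone were found in 9 and 2 members, and Mmrn1 and Flt4 alone in 5 and 5. Which markers are seen depends on depth, with a median of 3760 UMIs in GOF members and 1976, 1432 and 1379 in wild-type members. The part of depth in these counts was not tested. Just inside the gate, with exactly 2 markers, stood 19 GOF cells and 3, 2 and 7 wild-type cells. Their summed level of Reln, a secreted glycoprotein of lymphatic vessels that the gate did not use, was 148 CPM in the GOF library and 0, 660 and 355 CPM in the wild-type libraries. Just outside, with exactly 1 marker, stood 46 GOF cells and 7, 12 and 14 wild-type cells, with Reln at 4.91 CPM in the GOF library and 167, 23 and 25.6 CPM in the wild-type libraries.

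Lyve1 was not detected in 45 GOF members and in 6, 8 and 13 wild-type members. In the GOF library Ccl21a was at 156 CPM in members without Lyve1 and 8987 CPM in members with it, and Gja4, a connexin of lymphatic valves and arteries, was at 565 CPM without Lyve1 and 229 CPM with it. In the wild-type libraries Ccl21a was at 2264, 15836 and 3766 CPM in members without Lyve1, against 61931, 55933 and 40889 CPM in members with it. Reln was at 323, 400 and 180 CPM without Lyve1, against 1511, 1138 and 1887 CPM with it. Gja4 was at 485, 200 and 280 CPM without Lyve1, against 52.8, 42.5 and 85.4 CPM with it, so the order was the same in all 4 libraries. Of the UMIs of members without Lyve1, the deepest cell gave 13.6% in the GOF library, against 38.6%, 39.2% and 41.0% in wild type. That of wild-type library 3 had 20481 UMIs, of which Prox1, Mmrn1 and Egfl7 had 1 each and Ccl21a 2. Reln, Cldn5 and Kdr had 0 in it, so it shows little of a lymphatic profile. Levels without Lyve1 in wild-type library 3 rest on that cell to this extent. Its 20481 UMIs are also part of the 167060 UMIs of all members of that library, so the cell enters the main levels and fits as well. Median depth was 3559 UMIs without Lyve1 and 3803 with it in the GOF library, and 2697, 2042 and 1325 UMIs without it against 1976, 1339 and 1397 with it in the wild-type libraries. The split uses a gate gene and was made after the values were seen, so it has no test.

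The label was checked against markers of 12 other cell types. In GOF members all 6 markers of liver sinusoidal endothelium were detected, with Clec4g at 23.9 CPM and Oit3 at 2.28 CPM, against 1, 1 and 2 of the 6 in wild-type members, with Clec4g and Oit3 at 0 in each. The list summed to 154 CPM in the GOF library, with 32.6% of the UMIs in 1 cell, against 177, 88.7 and 162 CPM in the wild-type libraries. T cell, B cell and dendritic cell lists were at most 18 CPM in any library. Epithelial markers summed to 525 CPM in GOF members, against 477, 653 and 473 CPM. Single cells stood out: pancreatic acinar genes reached 22208 CPM in wild-type library 3, with 96.8% of those UMIs in 1 cell, against 5.69 CPM in the GOF library and 309 and 133 CPM in the other two wild-type libraries. Neutrophil genes reached 551 CPM in wild-type library 2, with 85.1% in 1 cell, and fibroblast genes 735 CPM there, with 81.0% in 1 cell. No barcode of a lymphatic cell was shared between libraries. The lymphatic sums held 878848 UMIs in the GOF library and 113190, 157802 and 167060 UMIs in the wild-type libraries, and the deepest cell gave 7.01% of them in the GOF library, against 14.0%, 12.6% and 17.1% in the wild-type libraries. In blood endothelium the deepest cell gave 6.88% of the UMIs in the GOF library, against 14.3%, 33.9% and 8.06% in the wild-type libraries. That of wild-type library 2 had 25865 UMIs, of which Pecam1 and Egfl7 had 1 each and the mesothelial and lymphatic gene Pdpn 18, and mesothelial markers summed to 1181 CPM there, with 100% in 1 cell. Blood endothelial levels of wild-type library 2 rest on that cell to this extent. The deepest GOF blood endothelial cell had 15458 UMIs, of which Pecam1 and Cdh5 had 1 each and Pdpn 35. Fibroblast markers summed to 1539 CPM in GOF blood endothelium, with 65.3% in 1 cell. The median mitochondrial share was 2.42% in GOF members and 6.61%, 8.23% and 8.08% in wild-type members.

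Lymphatic cells formed a small share of every duct. They made up 1.44% of filtered GOF cells (exact Clopper-Pearson 95% interval 1.21% to 1.69%), against 0.855% (0.609% to 1.17%), 1.77% (1.29% to 2.37%) and 2.33% (1.73% to 3.07%) of wild-type cells, so the GOF value lay within the wild-type range. Of the endothelial cells, 71.1% were lymphatic in the GOF library (64.3% to 77.2%), against 57.4% (44.8% to 69.3%), 67.7% (54.9% to 78.8%) and 55.1% (44.1% to 65.6%) in the wild-type libraries. The GOF share was the highest of the 4, and its interval overlaps each of the others. It was below wild-type library 2 under both other blood gates, at 46.5% against 46.8% with 1 marker and 81.0% against 81.5% with all 3. The intervals cover counting error only, and no test was run on the shares, since an exact permutation of 1 library against 3 cannot give a one-sided p below 0.25. When cells were thinned to 2000 UMIs before the gate, the lymphatic share of filtered cells was 1.53% in the GOF library, against 0.494%, 0.648% and 1.37%, so the order of the GOF share and the wild-type mean turned (1.44% against 1.65% unthinned, 1.53% against 0.838% thinned). This setting left out cells with fewer than 2000 UMIs. It held 130 GOF members and 18, 13 and 17 wild-type members, against 145, 39, 44 and 49 in the main gate. Median member depth before thinning was 3760 UMIs in the GOF library and 1976, 1432 and 1379 UMIs in the wild-type libraries. How much of the turned order comes from the cells left out was not tested. Shares also reflect how well the digestion freed each cell type.

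**Figure D2:**
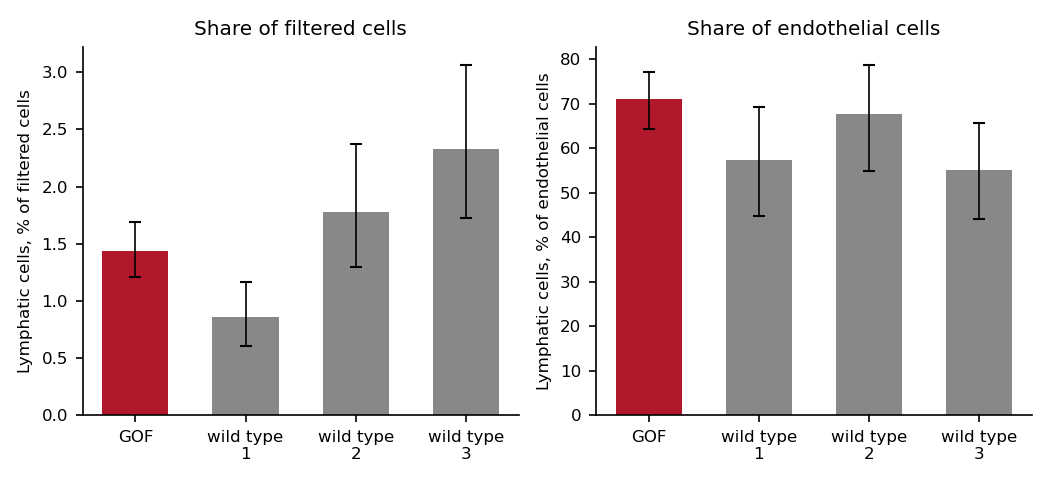
Lymphatic cells as a percentage of filtered cells (left) and of endothelial cells (right), bars with exact 95% intervals, 1 bar per library. On the left the GOF share, 1.44%, lies between wild-type libraries 1 and 2, and on the right it is the highest, 71.1%.

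The wild-type libraries show what separates lymphatic from blood endothelium of the duct beyond the gate genes. Of 1518 genes tested with edgeR (quasi-likelihood, libraries as blocks, Benjamini-Hochberg adjustment at 0.05), 171 were higher (11.3% of those tested) and 127 lower (8.37%) in lymphatic cells, and the median log2 fold change was 0.03. With cells left out that had 1% or more of their UMIs from markers of another type, a setting chosen after seeing the data, 211 were higher and 217 lower. The secreted glycoprotein Reln, the transcription factor Maf and the protease inhibitor Timp3 were higher in lymphatic cells, and the decoy VEGF receptor Flt1, the chemokine scavenger Ackr1 of venules and the endothelial antigen Ly6c1 were lower. The GOF library was not used in this fit. In it, 165 of the 171 genes (96.5%) and 123 of the 127 genes (96.9%) had the same direction, where genes not past the threshold kept a positive direction in 78.6% of cases and a negative one in 49.6%.

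**Figure D3:**
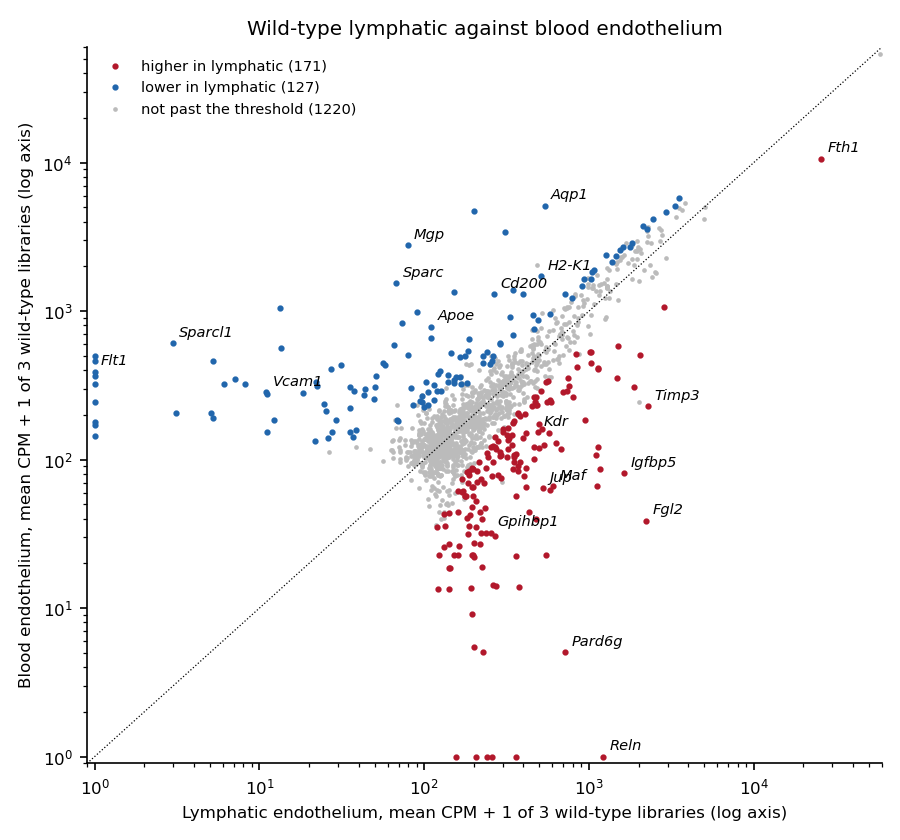
Mean level of each of 1518 tested genes in wild-type lymphatic (x axis) and blood (y axis) endothelium, as CPM + 1 on log axes. Red marks 171 genes higher and blue 127 genes lower in lymphatic cells at an adjusted p under 0.05, and the dotted line marks equal levels.

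Reln had 1316, 951 and 1377 CPM in lymphatic cells of wild-type libraries 1, 2 and 3 and was not detected in blood endothelium of any of them. The pooled level was at least 93.7-fold higher, taking a floor of 3 counts over the blood endothelial sums (edgeR adjusted p = 1.44e-05). Its GOF level was 1075 CPM in lymphatic cells and 4.45 CPM in blood endothelium, so lymphatic values lay above blood values in all 4 libraries.

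Fgl2, a fibrinogen-like protein, had 2200, 2376 and 2071 CPM in lymphatic cells and 73.3, 13.1 and 26.8 CPM in blood endothelium (log2 fold change 5.85, SE 0.36, edgeR adjusted p = 1.24e-05). Pard6g, a member of the Par6 polarity proteins, had 680, 722 and 736 CPM in lymphatic cells and 12.2, 0 and 0 CPM in blood endothelium, where it rested on 1 UMI. The pooled ratio was 167 with a 95% counting interval of 29.7 to 6609. Thy1, a surface glycoprotein, had 486, 380 and 215 CPM in lymphatic cells against no UMI in blood endothelium, a pooled level at least 26.7-fold higher.

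The other genes at the top of the ranking were the transporter Slc45a3 (at least 18.9-fold higher), the protease inhibitor Serpine2 (at least 18.4-fold), the endophilin Sh3gl3 (at least 15.4-fold) and Ackr2, an atypical receptor that removes inflammatory chemokines (at least 12.2-fold), all with no UMI in wild-type blood endothelium. Ackr2 had 150, 108 and 210 CPM in lymphatic cells and 50.1 CPM in GOF lymphatic cells. Dtx1, a regulator of Notch signalling, had a pooled ratio of 52.6 (9.22 to 2098) and the adhesion receptor Adgrg3 one of 45.7 (7.98 to 1825), each resting on 1 blood endothelial UMI. All 10 genes were past the threshold without each wild-type library in turn.

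Of the 30 genes on a list of lymphatic identity, 21 were tested, of which 17 were higher and none lower, with a median log2 fold change of 2.94. Of all tested genes 11.3% were higher and 8.37% lower, shares that stand beside each list below as well. The lists were chosen with earlier results of these data known, so these counts are a description and not a test of a list. Insulin-like growth factor binding protein Igfbp5 had 1564, 2408 and 928 CPM in lymphatic cells and 134, 78.7 and 26.8 CPM in blood endothelium (log2 4.35, SE 0.32). Maf, a factor of lymphatic identity and branching, had 486, 488 and 844 CPM against 24.4, 105 and 67.0 CPM (log2 3.22, SE 0.38). The scavenger receptor Stab1 had 839, 665 and 533 CPM against 97.8, 65.6 and 187 CPM (log2 2.57, SE 0.35). None of these 3 groups of values overlapped between the cell types. Nr2f2, which induces Prox1 in embryonic veins, had 875, 703 and 820 CPM against 293, 157 and 335 CPM (log2 1.67, SE 0.25). The ferritin heavy chain Fth1 was higher too (log2 1.33, SE 0.23), but without wild-type library 1 its adjusted p was 0.205.

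Of 17 tested genes of blood endothelial identity, 13 were lower, 3 were higher and the median was −5.41, or −5.14 with genes undetected in lymphatic cells set at their bound. Ly6c1 had no UMI in wild-type lymphatic cells and 611, 315 and 576 CPM in blood endothelium, at least 73.4-fold lower. Ackr1 was at least 68.4-fold lower and had no UMI in lymphatic cells of the GOF library as well. Flt1, which binds VEGF-A and limits its action, was at least 57.1-fold lower, with 0, 0 and 0 CPM against 464, 289 and 415 CPM. The junction molecule Jam2 was at least 52.7-fold lower, the membrane protein Mal at least 47.7-fold, the arterial factor Sox17 at least 35.1-fold, the VEGF-A co-receptor Nrp1 at least 24.5-fold and the interferon-inducible Ifi203 at least 20.7-fold. The matrix protein Sparcl1 had 1 UMI in wild-type lymphatic cells, a pooled ratio of 0.00371 (9.34e-05 to 0.0210), and the stem cell antigen Ly6a had 2, a pooled ratio of 0.00993 (0.00119 to 0.0368).

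The 3 members of the blood list that were higher in lymphatic cells were the VEGF receptor Kdr, the lipase anchor Gpihbp1 and Apold1. Kdr, or VEGFR2, had 459, 545 and 455 CPM in lymphatic cells and 232, 91.9 and 134 CPM in blood endothelium (log2 1.72, SE 0.32, edgeR adjusted p = 0.00344). The lymphatic values lay above the blood values in every wild-type library. Gpihbp1, which carries lipoprotein lipase across capillary endothelium, had 283, 196 and 281 CPM in lymphatic cells and 0, 0 and 93.7 CPM in blood endothelium (log2 3.12, SE 0.66).

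In the VEGF-C and VEGFR3 pathway, 8 of 25 genes were tested, of which 3 were higher and 2 lower, with a median of 0.84. Among the ligands, Vegfc had no UMI in the lymphatic cells of any library, while blood endothelium had 120 CPM in the GOF library and 12.2, 13.1 and 80.4 CPM in the wild-type libraries. Vegfd was at 7.96 CPM in GOF lymphatic cells and at 0, 6.34 and 5.99 CPM in wild-type lymphatic cells. Ccbe1 and Adamts3, needed to activate VEGF-C, were at 1.14 and 2.28 CPM in GOF lymphatic cells and had no UMI in wild-type lymphatic cells.

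Among the receptors, Kdr was higher and Nrp1 and Flt1 lower as above. Nrp2, the VEGF-C co-receptor, had 230, 380 and 186 CPM in lymphatic cells and 171, 91.9 and 161 CPM in blood endothelium, which did not pass the test (log2 0.90, SE 0.37, adjusted p = 0.128). Tie1 was higher by a log2 of 0.85 (SE 0.24, adjusted p = 0.0342), a call that was lost without any 1 of the 3 wild-type libraries (adjusted p 0.183, 0.10 and 0.0954 without library 1, 2 and 3). Adrenomedullin, Adm, which supports lymphatic growth, had 141, 139 and 204 CPM in lymphatic cells and 48.9, 26.2 and 0 CPM in blood endothelium (log2 2.64, SE 0.62). Its receptor subunits did not pass, with Calcrl at log2 0.82 (SE 0.38) and Ramp2 at log2 0.10 (SE 0.24).

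Matrix genes went both ways: of 17 tested, 6 were higher, 4 lower and the median was 0.73. Timp3 had 2103, 2022 and 2694 CPM in lymphatic cells and 110, 262 and 308 CPM in blood endothelium (log2 3.39, SE 0.27). The laminin chains Lama4, Lamb1 and Lamc1 and collagen Col4a1 were also higher, with Lamb1 at 212, 158 and 198 CPM against 97.8, 13.1 and 13.4 CPM (log2 2.22, SE 0.50). Col4a1 (log2 1.00, SE 0.29) was not past the threshold without wild-type library 2 or 3 (adjusted p 0.120 and 0.134). The inhibitor of calcification Mgp had 0, 133 and 102 CPM in lymphatic cells and 2236, 3202 and 2852 CPM in blood endothelium (log2 −5.13, SE 0.44). Sparc (log2 −4.53, SE 0.56) and Ecm1 (log2 −5.17, SE 0.70) were lower as well. Fibroblast markers summed to 5250 CPM in blood endothelium of wild-type library 2, with 98.8% in 1 cell, and to 48.9 and 549 CPM in libraries 1 and 3. With cells carrying other types' markers left out in this way, the log2 fold change was −6.17 for Mgp, −6.27 for Sparc and −4.81 for Ecm1, each past the threshold.

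Junction genes also split, with 5 of 12 tested higher, 3 lower and a median of 0.41. Plakoglobin, Jup, had 486, 520 and 569 CPM in lymphatic cells and 97.8, 78.7 and 13.4 CPM in blood endothelium (log2 3.06, SE 0.42), and the claudin Cldn5 had 1944, 1477 and 1089 CPM against 745, 472 and 536 CPM (log2 1.38, SE 0.21). Neither gene overlapped between the types. The connexin Gja1 was higher (log2 2.32, SE 0.43). Esam, an adhesion molecule of blood vessels, was lower (log2 −3.67, SE 0.40), as was the VE-cadherin phosphatase Ptprb (log2 −2.57, SE 0.31).

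Of 8 tested genes of leukocyte trafficking, 2 were higher and 3 lower, with a median of 0.07. Beside Ackr2, the chloride channel regulator Clca3a1 was higher, with 309, 412 and 479 CPM in lymphatic cells and 97.8, 65.6 and 67.0 CPM in blood endothelium (log2 2.38, SE 0.34). P-selectin, Selp, which starts leukocyte rolling, had 0, 6.34 and 12.0 CPM in lymphatic cells and 391, 144 and 509 CPM in blood endothelium. Its pooled ratio was 0.0197 (0.00397 to 0.0596), from 3 lymphatic UMIs. The adhesion ligand Vcam1 was lower (log2 −4.67, SE 0.46), and so was the inhibitory ligand Cd200 (log2 −2.21, SE 0.22).

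Of 10 tested antigen presentation genes, 6 were lower, none higher, and the median was −1.23. The class I heavy chain H2-K1 had 389, 640 and 503 CPM in lymphatic cells and 2138, 1575 and 1460 CPM in blood endothelium (log2 −1.71, SE 0.24). Its light chain B2m had 353, 437 and 395 CPM against 1173, 1089 and 1647 CPM (log2 −1.67, SE 0.22). H2-D1, H2-Q4, H2-Q7 and the immunoproteasome subunit Psmb8 were also lower, though with DESeq2 the calls for H2-D1, H2-Q4 and Psmb8 were lost (adjusted p 0.0694, 0.0911 and 0.0560), and that for H2-D1 also in thinned cells (0.0639) and without the library block (0.0614). H2-Q7 had 0, 6.34 and 0 CPM in lymphatic cells and 232, 223 and 161 CPM in blood endothelium. Family members of the class I genes share sequence, so reads can be split between them.

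The guidance list had 3 of 4 tested genes higher and none lower (median 2.26). They were Reln and the semaphorins Sema3d, with 194, 209 and 198 CPM in lymphatic cells against 0, 78.7 and 0 CPM (log2 2.94, SE 0.68), and Sema3f, which was not past the threshold without wild-type library 1 (adjusted p 0.200). Of 11 Notch, BMP and TGF-beta genes, 3 were higher and 3 lower (median −0.55). Of these, Id1, a target of BMP signalling, was lower (log2 −1.45, SE 0.26) and Bmp4 was lower (log2 −1.38, SE 0.40), the call for Bmp4 being lost without wild-type library 1 or 3 (adjusted p 0.153 and 0.0615). Apoe, an apolipoprotein, had 26.5, 158 and 144 CPM in lymphatic cells and 733, 525 and 1098 CPM in blood endothelium (log2 −2.79, SE 0.40). None of 19 tested oxidative phosphorylation genes passed in either direction (median −0.02; 445 of 1518 genes had an unadjusted p under 0.05). With DESeq2 the calls for Tie1, Adm, Gja1, Col4a1, Lamb1, Sema3f and Bmp4 were lost as well (adjusted p 0.0533 to 0.387), and with a blood gate of 1 marker those for Fth1, Id1, Bmp4 and H2-D1 (0.0653 to 0.330). None of the 11 Wnt feedback genes or 16 mitotic genes had enough counts to be tested.

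In the GOF library, the gene that carries the gain of function, Ctnnb1, had 296 CPM in lymphatic cells, against 415, 469 and 293 CPM in the wild-type libraries (log2 −0.60, SE 0.38, edgeR adjusted p = 0.392). Prom1, named in the genotype, had 6.83 CPM (6 of 145 cells), against 8.83, 0 and 12.0 CPM, and was too low to test. The construct is not described in the labels, so these counts do not check which cells carry it. Wnt feedback genes stayed near the detection limit in lymphatic cells: Axin2 had 3.41 CPM in the GOF library and 0, 12.7 and 18 CPM in the wild-type libraries, and 0 of 11 genes on that list could be tested.

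Across genes, 216 of 4125 tested were higher in GOF than in wild-type lymphatic cells (5.24%) and 62 were lower (1.5%), with a median log2 fold change of −0.04 and the GOF library assumed to vary like the wild-type libraries. Most of these differences were not limited to lymphatic cells. Of the 216 genes, 209 (96.8%) were also above every wild-type library in the remaining filtered cells, against 53.4% of all tested genes, and 203 (94.0%) were so in blood endothelium, against 35.7% of all tested genes. Of the 62 lower genes, 48 (77.4%) were also below every wild-type library in the remaining cells, against 22.3% of all tested genes. The remaining cells are a separate set of cells from the same libraries, so they share the processing.

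The higher genes were long. Their median annotated intron length was 223 kb, against 20.5 kb for all tested genes and 3.21 kb for the lower genes. Of 655 tested genes with over 100 kb of intron, 165 (25.2%) were higher and 0 lower, with a median log2 of 1.30. Of 912 genes with up to 5 kb, 16 were higher and 38 lower, with a median of −0.40. Whether introns were counted alike in the GOF and wild-type matrices is not given in the sources used here, and intron length moved with the difference between groups, so the group difference of a long gene and the processing cannot be told apart. Fitted alone, the 912 genes with at most 5 kb of intron gave 10 higher (1.1%) and 1 lower (0.11%), with 146 at an unadjusted p under 0.05.

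**Figure D4:**
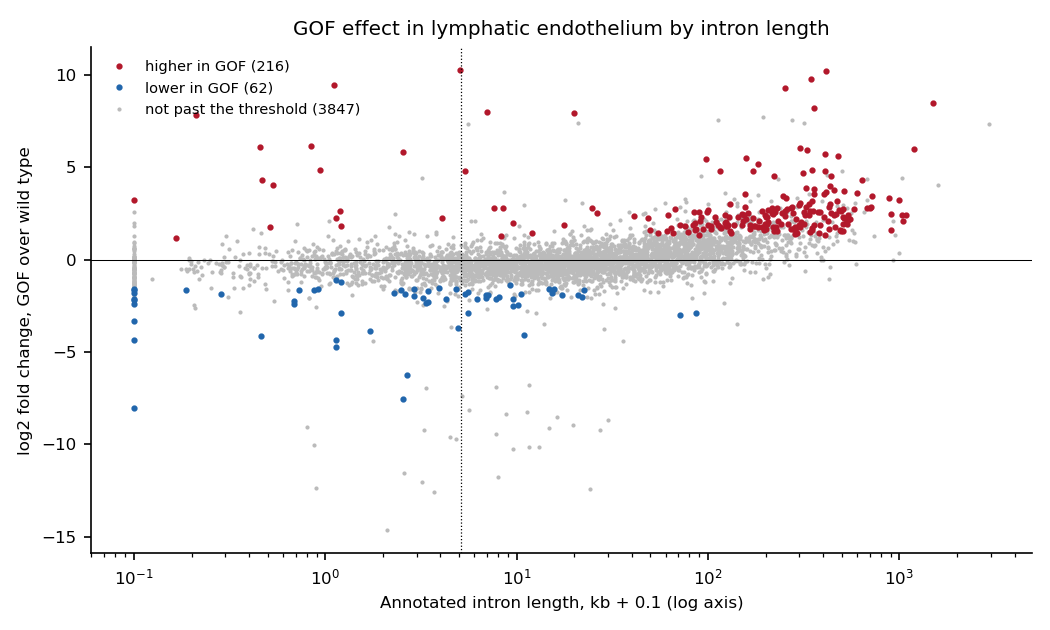
Log2 fold change of GOF over wild-type lymphatic cells (y axis) against annotated intron length in kb + 0.1 on a log axis (x axis), 1 point per tested gene, with the dotted line at 5 kb. Genes over 100 kb have a median of 1.30, and genes up to 5 kb one of −0.40.

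The genes with the largest folds included several of these long genes. Camk1d, a calmodulin-dependent kinase, had 476 CPM in GOF lymphatic cells and no UMI in any wild-type library, at least 69.4-fold higher. It was also at 316 CPM in the remaining GOF cells, against 7.97, 4.91 and 5.77 CPM. The sodium-calcium exchanger Slc8a1 (at least 52.0-fold), Wdr17 (at least 37.1-fold), the phosphodiesterase Pde4d (at least 20.8-fold) and the potassium channel Kcnt2 (at least 17.4-fold) were of the same kind. Kcnt2 was not past the threshold without wild-type library 1 (adjusted p 0.0625), nor were Timm23 (at least 14.1-fold, 0.0989) and Mrpl53 (at least 13.5-fold, 0.107).

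Xist, the RNA that silences an X chromosome in female cells, had 433 UMIs in 74 of 145 GOF members and none in wild-type members. Transcripts of Y-linked genes such as Ddx3y were present in lymphatic cells of all 4 libraries, with 30 UMIs in the GOF library, against 9, 13 and 7 in the wild-type libraries. Sex thus moves with the group, and its part in the differences was not tested.

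Among the largest falls, the glutathione transferase Gstp1 had 10.2 CPM in GOF lymphatic cells, against 97.2, 247 and 204 CPM. In the remaining cells it was at 31.6 CPM in the GOF library and 604, 1164 and 1189 CPM in the wild-type libraries, so it lay below all 3 there too. Polr2l, Bloc1s1, Usp50 and the secreted inhibitor Spink4 were others on that list. Spink4 was far higher in the remaining cells, at 1313 CPM in the GOF library and 21483, 15547 and 10811 CPM in the wild-type libraries. Try4, S100a9 and S100a8 were lower in GOF members, but 83.2%, 62.5% and 53.7% of their wild-type UMIs lay in 1 cell, and all 3 calls were lost without wild-type library 1 (adjusted p 0.119, 0.0921 and 0.131).

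Some genes were called in lymphatic cells without lying beyond the wild-type range in the remaining cells of the library. These were picked after their values were seen, and none of those named here was past the threshold of the interaction test that sets lymphatic cells against blood endothelium. Adamts1, a secreted protease that cleaves matrix proteoglycans, had 332 CPM in GOF lymphatic cells, against 53.0, 69.7 and 53.9 CPM (log2 2.28, SE 0.36, edgeR adjusted p = 0.00558). In the remaining cells it was at 32.3 CPM in the GOF library against 10.0, 43.5 and 36.3 CPM, but in blood endothelium it was above every wild-type library as well, at 205 CPM against 24.4, 118 and 121 CPM. It was called under 11 of 12 settings, short genes fitted alone among them, and its adjusted p was 0.0990 with cells over 3 times the median UMIs left out.

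Ackr3, a scavenging receptor for CXCL12 and adrenomedullin, had 190 CPM in GOF members, against 53.0, 44.4 and 29.9 CPM (log2 1.99, SE 0.39, adjusted p = 0.0171), and 12.4 CPM against 10.7, 16.2 and 11.1 CPM in the remaining cells. Without wild-type library 1 its adjusted p was 0.0658. Stanniocalcin, Stc1, had 149 CPM against 44.2, 12.7 and 5.99 CPM (log2 2.79, SE 0.57, adjusted p = 0.0199), with 35.1% of GOF UMIs in 1 cell. The transcription factor Ebf1 had 604 CPM against 212, 228 and 144 CPM (log2 1.44, SE 0.35, adjusted p = 0.0382), and was not past the threshold without wild-type library 1 (0.120). Blood endothelium had Ebf1 at 783 CPM in the GOF library, against 171, 262 and 241 CPM, and Ackr3 within the wild-type range at 53.4 CPM, against 24.4, 39.4 and 67.0 CPM. With DESeq2 the calls for Ackr3, Stc1 and Ebf1 were lost (adjusted p 0.231, 0.196 and 0.0847).

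Ccl2 and Ccl7, chemokines that attract monocytes, were higher in few cells. Ccl2 had 599 CPM in GOF members, against 0, 0 and 18 CPM, from 10 of 145 GOF cells, with 45.4% of the UMIs in 1 cell. The pooled ratio was 87.4 (29.7 to 425, 3 wild-type UMIs), and the call was lost with DESeq2 (adjusted p = 0.523). Ccl7 had 281 CPM against no UMI in wild-type members, from 8 GOF cells, with 38.9% in 1 cell, at least 41.0-fold higher (edgeR adjusted p = 0.00129). In the remaining cells the GOF library did not stand apart, with Ccl2 at 122 CPM against 2.96, 125 and 15.6 CPM and Ccl7 at 37.4 CPM against 2.43, 56.3 and 11.8 CPM. In blood endothelium Ccl2 was at 44.5 CPM in the GOF library and had no UMI in the wild-type libraries, and Ccl7 was at 22.2 CPM against 0, 26.2 and 0 CPM.

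Among the 62 lower genes, 14 were not below the wild-type range in the remaining cells, with Fxyd1, Sox18, Aqp1 and Fth1 among them. Fxyd1, a regulator of the sodium pump, had 102 CPM in GOF members, against 389, 507 and 395 CPM (log2 −2.27, SE 0.41, edgeR adjusted p = 0.0118). Sox18, which switches on Prox1 in the embryo, had 94.4 CPM against 327, 285 and 299 CPM (log2 −1.88, SE 0.37, adjusted p = 0.0179), and 0.0719 was its adjusted p without wild-type library 1. Fth1 had 13818 CPM against 26283, 23118 and 27727 CPM (log2 −1.10, SE 0.17, adjusted p = 0.00458). For each of these the GOF value was below all 3 wild-type values. The water channel Aqp1 had 139 CPM against 777, 488 and 347 CPM (log2 −2.13, SE 0.51), with an adjusted p of 0.0904 without wild-type library 1 and a log2 of −0.83 (adjusted p = 0.326) in cells thinned to 2000 UMIs. With short genes fitted alone, Fth1, Fxyd1 and Sox18 were not past the threshold (adjusted p 0.163, 0.0820 and 0.0877). In blood endothelium Fth1 and Fxyd1 were below every wild-type library too, with Fth1 at 7048 CPM in the GOF library against 9311, 13689 and 8892 CPM and Fxyd1 at 17.8 CPM against 24.4, 78.7 and 26.8 CPM.

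**Figure D5:**
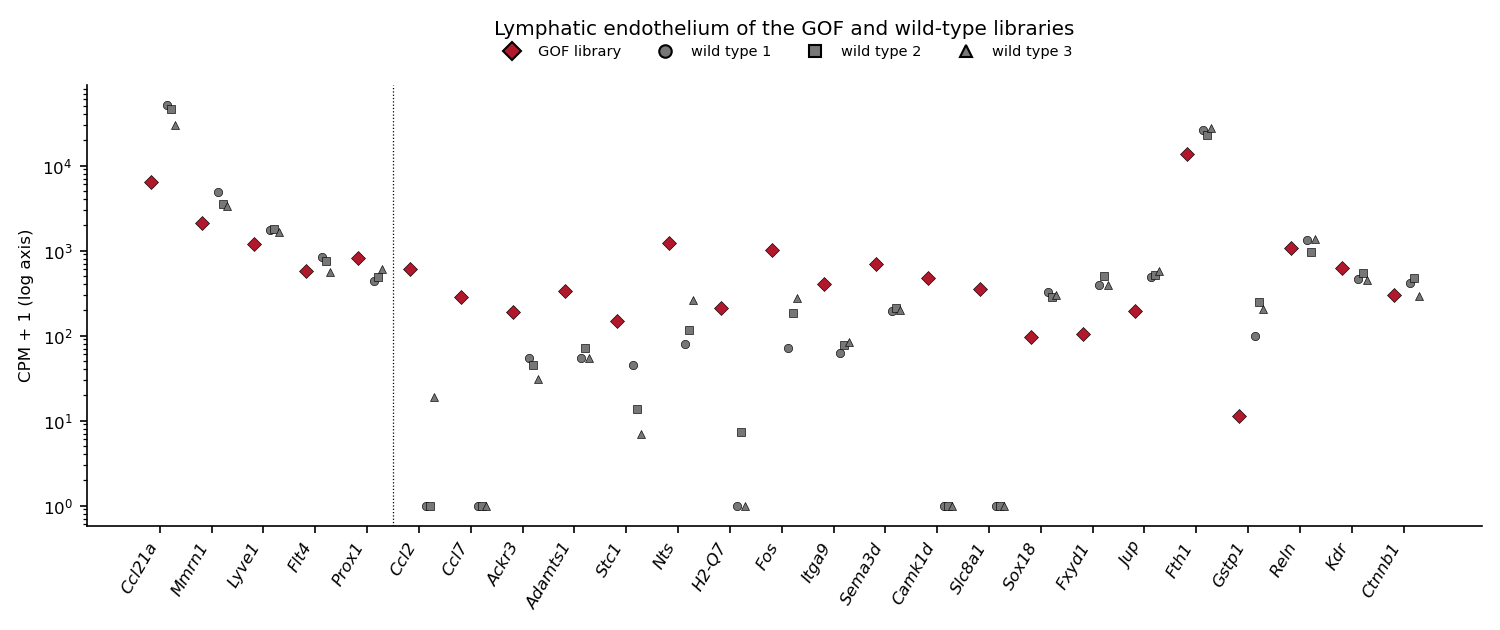
Levels in lymphatic cells of the GOF library (red) and wild-type libraries 1 to 3 (grey symbols), as CPM + 1 on a log axis. The 5 gate genes stand left of the dotted line, and Ccl21a is at 6479 CPM in the GOF library and between 29798 and 52151 CPM in the wild-type libraries.

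By list, 4 of 28 tested lymphatic identity genes were higher in GOF members and 2 lower, with a median of −0.05. Of all tested genes 5.24% were higher and 1.5% lower, and 25.2% of those over 100 kb of intron were higher. These shares stand beside each list below as well, and here too the counts are a description, since the lists were chosen with earlier results known. The higher identity genes were the neuropeptide Nts, Sema3d, the scavenger Colec12 and the mechanosensitive channel Piezo2. Nts had 1230 CPM in GOF members, against 79.5, 114 and 257 CPM (log2 2.79, SE 0.52, adjusted p = 0.0133), and 0.0783 was the adjusted p without wild-type library 1. In the remaining cells Nts was nearly absent, at 1.77 CPM in the GOF library and 0.0477, 0.787 and 0.679 CPM in the wild-type libraries. Sema3d had 693 CPM against 194, 209 and 198 CPM (log2 1.59, SE 0.32), Colec12 208 CPM against 61.8, 63.4 and 23.9 CPM, and Piezo2 298 CPM against 88.3, 88.7 and 41.9 CPM. Without wild-type library 1 their adjusted p-values were 0.0834, 0.10 and 0.0954. Sema3d, Colec12 and Piezo2 were also above every wild-type library in the remaining cells. In lymphatic cells Reln, at 1075 CPM against 1316, 951 and 1377 CPM, lay within the wild-type range.

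In the VEGF-C and VEGFR3 pathway, 3 of 12 tested genes were higher and none lower, with a median of 0.48. They were Ackr3, the angiopoietin receptor Tek and the adrenomedullin receptor Calcrl. Tek had 262 CPM against 97.2, 76.0 and 65.8 CPM (log2 1.53, SE 0.36), and Calcrl 449 CPM against 186, 139 and 144 CPM (log2 1.33, SE 0.32). Both genes were also above every wild-type library in the remaining cells. Without wild-type library 1 the adjusted p was 0.0895 for Tek and 0.0989 for Calcrl. Kdr, at 620 CPM against 459, 545 and 455 CPM, did not pass the test (log2 0.15, SE 0.36, adjusted p = 0.841).

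Of 13 tested valve and collecting vessel genes, 2 were higher and none lower (median 0.40). Integrin Itga9, needed for lymphatic valve leaflets, had 399 CPM in GOF members, against 61.8, 76.0 and 83.8 CPM (log2 2.21, SE 0.35, adjusted p = 0.00558), and Foxp2, a factor of collecting vessels, had 506 CPM against 70.7, 108 and 144 CPM (log2 2.00, SE 0.38; adjusted p without wild-type library 1, 0.0790). Both genes span over 100 kb of intron. They were above the wild-type range in the remaining cells, as were the guidance genes Sema3a, Sema3d and Plxna4. Of 15 guidance genes, 3 were higher (Sema3a, Sema3d and Plxna4) and none lower (median 0.68), and all 3 are long genes whose calls were lost without wild-type library 1.

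Trafficking genes had 3 of 16 tested higher, Ccl2, Ccl7 and Ackr3, and none lower (median 0.06), the calls for Ccl2 and Ackr3 being lost with DESeq2. Of 13 antigen presentation genes, H2-Q7 was higher, with 208 CPM in GOF members, against 0, 6.34 and 0 CPM, a pooled ratio of 91.2 (16.2 to 3622), and the median was −0.04. H2-Q7 was above every wild-type library in the remaining cells too. Among 15 immediate early genes 2 were higher and none lower (median 0.66): Fos had 1005 CPM against 70.7, 184 and 275 CPM and Fosb 319 CPM against 53.0, 101 and 71.8 CPM. In the remaining cells Fos was at 2725 CPM in the GOF library and 324, 582 and 962 CPM in the wild-type libraries, and Fosb was above the wild-type range too. Both calls were lost without wild-type library 1 (adjusted p 0.0783 and 0.0949).

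Jup was the single junction gene of 13 tested that was lower, with 191 CPM in GOF members, against 486, 520 and 569 CPM (log2 −1.66, SE 0.40, adjusted p = 0.0384, and 0.0808 without wild-type library 1). None of 19 tested matrix genes, 13 Notch, BMP and TGF-beta genes or 8 interferon response genes passed in either direction, with medians of −0.07, −0.58 and −0.13, where 928 of all 4125 genes had an unadjusted p under 0.05. Of 21 oxidative phosphorylation genes Ndufa1 was lower and none higher, with a median of −0.59, while the share of mitochondrial UMIs was lower in GOF members, and its part was not tested. Jup and Ndufa1 were also below every wild-type library in the remaining cells. With DESeq2 the calls for Try4, Colec12, Piezo2, Tek, Calcrl, Sema3a, Plxna4 and Fosb were lost as well (adjusted p 0.0520 to 0.277), and in thinned cells those for Gstp1, Piezo2, Itga9, Foxp2, Sema3a and Plxna4 (0.0550 to 0.386). With short genes fitted alone, Gstp1, Polr2l, Bloc1s1, Fos, Fosb and Ndufa1 were not past the threshold (0.0820 to 0.191).

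The GOF effect was also set against that in blood endothelium, in an interaction test with library blocks, so that a shift common to both endothelial types of a library cancels. Of 4392 genes tested, 3 had a higher effect in lymphatic cells (0.0683%) and 5 a lower one (0.114%). H2-Q7, Vcam1 and the iron-binding Lcn2 were those with a higher effect. H2-Q7 was at 208 CPM in GOF and on average 2.11 CPM in wild-type lymphatic cells, against 240 CPM in GOF and 205 CPM in wild-type blood endothelium. In the remaining cells H2-Q7 was at 51.8 CPM in the GOF library, against 4.46, 6.48 and 10.7 CPM in the wild-type libraries. Its rise was thus not limited to lymphatic cells. Vcam1 was at 86.5 CPM in GOF and 10.0 CPM in wild-type lymphatic cells, against 151 CPM in GOF and 283 CPM in wild-type blood endothelium. All 8 calls were lost with DESeq2, which made 0 calls, without wild-type library 2, and with Prox1 required, while 187 genes had an unadjusted p under 0.05 in edgeR.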

How the data were processed

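The authors deposited 4 matrices of raw UMI counts, holding only barcodes that had been called as cells. Per the file headers, Cell Ranger 7.0.0 made the GOF matrix and 3.0.2 the wild-type matrices; the submitters' processing notes name version 7.1 and mm10. Genes were kept where both references list their identifier, 30406 in all (32285 in the GOF matrix, 31053 in the wild-type matrices). All matched the GENCODE annotation of GRCm38, which gave coordinates and intron lengths. Whether introns were counted is not given in the sources used here.

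UMIs were summed per library and cell type, since cells are not replicates. Sums were tested with edgeR 4.0.16 in R 4.3.3 (quasi-likelihood test, TMM normalisation, filterByExpr), p-values adjusted over all genes tested, and the script was tested on simulated data. Genes used by the gate stayed out of the calls. CPM values are UMIs scaled to the total UMIs of a sum, without TMM factors, and fitted folds include them. A fold against a group without UMIs is a bound that sets 3 counts there; ratios on 1 to 3 UMIs carry exact 95% counting intervals. Scrublet scores (scanpy 1.11.5) ranked possible doublets: 6 GOF and 1, 3 and 1 wild-type members scored in the top 0.8% per 1000 barcodes, and they were kept in the main fit.

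Named genes were the gate genes, the 10 largest changes in each direction per comparison (5 for the interaction) past the threshold whose higher group had at least 20 CPM, up to 8 members of each of 20 lists, the VEGF-C pathway, Ctnnb1 and Prom1. The members and lists were chosen with earlier results of these data known. The blood endothelial gate asks for at least 2 of its 3 markers, and 1 or all 3 were tried. Other settings are DESeq2 1.42.0, no TMM, no filter, each wild-type library left out, other gates, doublets left out, thinning to 2000 UMIs and short genes. Thinning left out cells with fewer UMIs. Some genes that this rule names are not reported here.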

Additional observations from a re-analysis of the deposited data

Results flagged for a closer look

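The GOF effect differed between lymphatic and blood endothelium for 8 genes, by the interaction test itself, in a design with 1 GOF library. The difference of the log2 effects, lymphatic minus blood, was 5.92 for H2-Q7, 3.92 for Vcam1 and 2.64 for Lcn2. It was −3.10 for the acute-phase protein Saa3, −3.39 for the collagen Col1a2, −5.75 for the cytokine-like Cytl1, −8.28 for the Wnt enhancer Rspo3 and −9.86 for the ribonuclease Rnase1. Lcn2 was at 2302 CPM in GOF and 950 CPM in wild-type lymphatic cells, against 66.7 CPM in GOF and 183 CPM in wild-type blood endothelium. Saa3 was at 74.0 CPM in GOF and 45.8 CPM in wild-type lymphatic cells, against 1580 CPM in GOF and 123 CPM in wild-type blood endothelium. With cells over 3 times the median UMIs left out, the difference of the log2 effects was −2.25 for Saa3 and 1.33 for Lcn2. With high doublet scores left out it was −2.45 and 2.24. Neither gene kept its call under these settings. None of the 8 genes kept its call with DESeq2, without wild-type library 2 or with Prox1 required. Cytl1 had no UMI in GOF and 40.3 CPM in wild-type lymphatic cells, against 494 and 647 CPM in GOF and wild-type blood endothelium, and Rspo3 was at 71.7 and 38.4 CPM, against 294 and 0 CPM. The sizes for Cytl1 and Rspo3 thus depend on a group without UMIs, and that for H2-Q7 on 1 wild-type lymphatic UMI. For Col1a2, 100% of the wild-type blood endothelial UMIs lay in 1 cell, and for Rnase1 97.0% of the wild-type lymphatic UMIs did.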

How the results depend on the processing

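Among named genes called in the main fit, none reversed its direction under any setting that tested it. Of these, 28 lymphatic-against-blood, 50 GOF and 8 interaction genes lost their call under at least 1 setting. Named genes without a call were not checked for a change of direction. For lymphatic over blood endothelium (171 higher, 127 lower), leaving out each wild-type library gave 165 to 167 higher and 120 to 135 lower. The counts were 77 and 67 with DESeq2, 368 and 256 without the low count filter, 51 and 40 in cells thinned to 2000 UMIs, 293 and 234 with a blood gate of 1 marker and 226 and 229 with all 4 libraries. Without the library block they were 148 and 98.

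For GOF over wild type (216 higher, 62 lower), leaving out each wild-type library gave 86 to 456 higher and 22 to 193 lower, the lowest without library 1 (37 named calls lost, adjusted p 0.0625 to 0.160) and the highest without library 3. The counts were 81 and 56 with DESeq2, 410 and 89 without TMM, 595 and 164 without the filter, 143 and 42 with at least 3 lymphatic markers, 80 and 30 thinned, and 10 and 1 in short genes, where fewer genes were tested.

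For the interaction (3 and 5), leaving out each wild-type library gave 0 to 2 and 0 to 8. The counts were 0 and 0 with DESeq2, with Prox1 required or thinned, 4 and 8 with at least 3 lymphatic markers, 35 and 38 with a blood gate of 1 marker, 4 and 17 with all 3, and 3 and 16 in short genes.

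Among settings chosen after seeing the data, leaving out cells with 1% or more of UMIs from markers of another type gave 211 and 217, 418 and 172, and 9 and 17 in the 3 comparisons, and leaving out cells over 3 times the median UMIs gave 154 and 144, 185 and 76, and 3 and 11. Elsewhere than named, the cause of a change was not tested.

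The lymphatic share of endothelial cells was 46.5% in the GOF library and 42.6% (42.55%) on average in wild type with a blood gate of 1 marker, 81.0% and 74.3% with all 3, and 77.4% and 57.2% thinned. With Prox1 required the wild-type mean was 45.7%, and the thinned wild-type share of filtered cells was 0.838%. The labels give no pairing of the GOF library with a wild-type library, so GOF and wild type were not compared as pairs. Genes under about 20 CPM in wild-type lymphatic sums rest on few UMIs.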
